A study of Mus musculus with 7 samples.

Results

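The second step of a NeuroD1 time course was examined, from 12 h to 48 h of induction, in ChIP-seq of H3K27ac. The comparison used 4 libraries, 2 at 12 h and 2 at 48 h, of the 6 H3K27ac libraries with read counts and the 7 samples of the whole series, and the 2 libraries of 0 h served to tell second-step changes from those already made by 12 h. The cells were A2Lox mouse embryonic stem (ES) cells, separated from their feeder cells before the experiments, and at every time point, 0 h included, they carried a transgene of the murine NeuroD1 coding sequence with an HA tag under a promoter that answers to doxycycline. At 0 h no doxycycline was given, and at 12 h and 48 h the cells had received 500 ng/ml. The replicates R1 and R2 of a time point are labelled as separate samples, but not as separate cultures, so the p-values measure the spread between these libraries, which may be technical. An Input sample was not used here.

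NeuroD1 is a proneural basic helix-loop-helix (bHLH) transcription factor. It binds E-boxes, short DNA sites, as a dimer with an E protein such as Tcf3, Tcf4 or Tcf12, and it acts in newborn neurons and in endocrine cells. H3K27ac, acetylation of lysine 27 of histone H3, marks active promoters and enhancers. In a bulk sample, fewer cells that carry the mark at a site and less of the mark per cell cannot be told apart.

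The merged peaks numbered 66841, with 676 bp as the median width, and the libraries held between 6283103 reads (48 h R1) and 8112895 reads (48 h R2) in peaks. Each count was scaled by dividing it by its library's total and multiplying by the average of the 6 totals. Markers of ES cells had a promoter peak for 8 of 8 genes, with summed scaled counts of 22495 and 22938 at 12 h and of 15849 and 18155 at 48 h. For neurons, 6 of 9 markers had one, and Dcx, Snap25 and Syt1 had none. The sums were 660 and 611 at 0 h, 490 and 499.5 at 12 h, and 948 in R1 and 684 in R2 at 48 h. Fibroblast feeder markers had one for 2 of 8 genes and summed to at most 40.3 in any library, and glial markers had one for 1 of 7 genes and summed to at most 12.7. The 48 h libraries thus held the mark at genes of ES cells and of neurons. The neuron markers already carried it at 0 h, and R2 at 48 h was little above that level. The feeder and glial sums rest on these 3 genes alone, and longer lists of genes of both cell types are given with the other lists, where some of them had higher values.

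The quasi-likelihood test of edgeR was run on every peak, adjustment was by Benjamini-Hochberg, and a peak was called gained or lost at an adjusted p under 0.05. From 12 h to 48 h, 7162 peaks were gained (10.7%) and 5634 were lost (8.43%). Promoter peaks, those within 2 kb of a protein-coding transcription start site (TSS), made up most gains in this fit. That majority depended on both 12 h libraries, since distal gains outnumbered promoter gains with either of them left out. With a fold of at least 2 there were 1364 promoter gains and 2066 distal gains. Among 16416 promoter peaks, 4491 were gained (27.4%) and 428 lost (2.61%). Among the 50425 other peaks, called distal here, 2671 were gained (5.3%) and 5206 lost (10.3%). Reads in promoter peaks rose in share along the same step, from 44.3% and 44.2% of reads at 12 h to 57.4% in R1 and 50.3% in R2 at 48 h, after 52.2% and 53.7% at 0 h. Its part in the calls was not tested. Single libraries weighed on these counts. Without 12 h R1, 1278 peaks were gained and 1511 lost, without 12 h R2 680 and 1062, without 48 h R1 5758 and 4325, without 48 h R2 12995 and 11596, without 0 h R1 4738 and 3838, and without 0 h R2 4712 and 3813. DESeq2 gave 4392 gains and 3073 losses.

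Many of these peaks had already moved by 12 h. Of the promoter gains, 1841 had been lost between 0 h and 12 h, 38 had been gained, and 2612 had no call at the first step. Of the distal losses, 2334 had been gained by 12 h, 4 had been lost and 2868 had no call. The 2 steps share the 12 h libraries, so their calls are not independent of each other. Changes with a call at 48 h against 12 h and none at 12 h against 0 h are named second-step changes below. There were 4824 second-step gains (7.22% of all peaks) and 3156 second-step losses (4.72%). A missing call at the first step is not evidence of no change there. Both 48 h libraries lay above both 0 h libraries in 3509 of the 4824 second-step gains, beside 23.9% of all peaks, and below both in 2430 of the 3156 second-step losses, beside 28.7% of all peaks. The way these classes were chosen favours such an order, so the shares are a description only.

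The 48 h replicates changed to different extents. Across all peaks, the log2 ratios of R1 and R2 to the 12 h mean had a Pearson correlation of 0.75, in a description across 66841 peaks that share the 12 h libraries. With a pseudocount of 8, the median log2 ratio at promoter peaks was 0.51 in R1 and 0.26 in R2, and at distal peaks it was -0.24 in R1 and -0.08 in R2. At second-step gains the medians were 1.08 in R1 and 0.68 in R2, and R1 stood above R2 in 4180 of 4824 peaks. At second-step losses the medians were -1.04 in R1 and -0.70 in R2, with R1 below R2 in most of them. Second-step peaks were called with both replicates in the fit, so a shared direction there follows from the choice. Over promoter peaks and over distal peaks, which were not chosen by change, the medians of both replicates had the same sign. Both are ratios to the same 12 h libraries, which had the lowest shares of reads in promoter peaks (44.3% and 44.2%). With scaling by library totals, a higher share at promoters goes with a lower share at distal peaks. The shared sign is therefore a description and does not show that the replicates agree. The change was smaller in R2. Over all peaks the medians were -0.07 in R1 and 0.01 in R2.

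**Figure D1:**
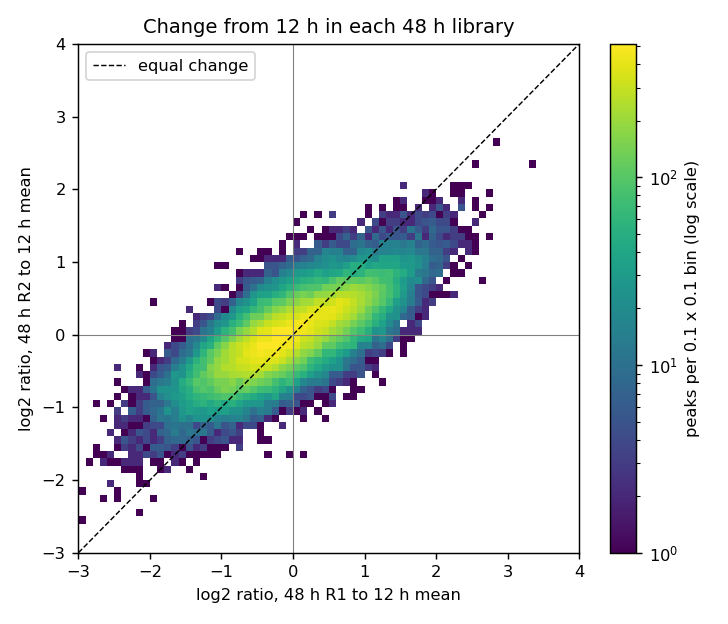
The log2 ratio to the mean of the 12 h libraries (pseudocount of 8) is plotted for each of the 66841 peaks, with 48 h R1 on the x axis, 48 h R2 on the y axis and the number of peaks per bin in colour on a log scale. The cloud lies flatter than the dashed line of equal change, with a correlation of 0.75, so changes in R2 were smaller than those in R1.

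Each replicate was also used on its own against 12 h, with the peaks called in this way read in the replicate that had been left out. The 5758 peaks gained in R2 alone had a median log2 ratio of 0.70 in R2 and 0.86 in R1, and 5599 of them (97.2%) lay above the 12 h mean in R1. The 4325 peaks lost in R2 alone had a median of -0.80 in R2 and -1.08 in R1. With R1 alone, 12995 peaks were gained, with a median of 0.90 in R1 and 0.45 in R2, and 11596 were lost, with -0.97 in R1 and -0.45 in R2. The calls from R1 alone were more numerous and about as large, yet R2 showed smaller values for them. These medians share the 12 h libraries and are given as a description. Of the second-step changes, 2705 of 4824 gains and 1876 of 3156 losses were called also with R1 left out and with R2 left out.

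GC content moved with the change in R1 more than in R2. Across 66783 peaks, the correlation of GC content with the log2 ratio to 12 h was 0.45 in R1 and 0.12 in R2. In promoter peaks with 60 to 65% GC the median log2 ratio was 0.81 in R1 and 0.29 in R2, and in those with 40 to 45% GC it was -0.15 in R1 and 0.14 in R2. In distal peaks of the latter range it was -0.49 in R1 and -0.11 in R2. With an offset that removes a smooth trend on GC content from each library, 9387 peaks were gained and 7113 lost, and these held 6752 of the 7162 gains (94.3%) and 4962 of the 5634 losses (88.1%). The part of GC content in the change was not tested. Where this offset ended the call of a named peak, or of peaks counted for a gene, it is given beside the result.

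**Figure D2:**
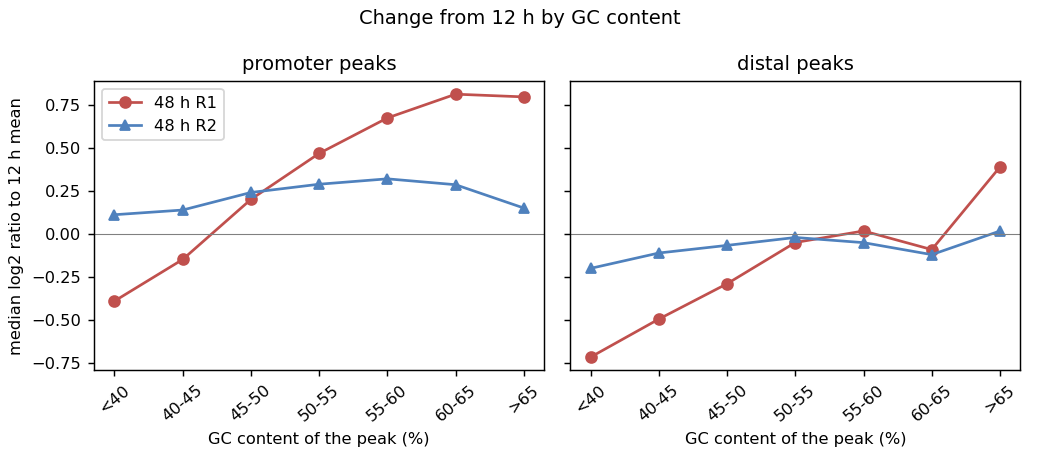
The median log2 ratio to the 12 h mean is plotted by GC content of the peak, for promoter peaks (left) and distal peaks (right), with circles for 48 h R1 and triangles for 48 h R2. In promoter peaks R1 climbed from -0.39 below 40% GC to 0.81 at 60 to 65% GC, whereas R2 stayed between 0.11 and 0.32.

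To show the DNA at distal second-step changes, stretches of 100 bases around a motif were read from GRCm38 (RefSeq) for distal peaks with a large change and a match within 150 bp of their centre. They were chosen for the motif after their values were seen. The first 4 are second-step gains with an E-box in capitals, CAGATG, which reads CATCTG on the opposite strand, or the palindrome CAGCTG, the kinds that dimers of NeuroD1 or E proteins are known to bind. All are on the forward strand, 5′ to 3′.
Near Ankfn1: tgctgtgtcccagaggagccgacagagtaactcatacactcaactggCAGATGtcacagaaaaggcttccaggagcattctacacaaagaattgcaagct
Near Rapgef1: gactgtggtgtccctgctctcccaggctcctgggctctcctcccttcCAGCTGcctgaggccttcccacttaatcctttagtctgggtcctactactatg
Near Adpgk: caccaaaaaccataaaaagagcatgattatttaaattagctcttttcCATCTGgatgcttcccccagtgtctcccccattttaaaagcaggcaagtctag
Near Mapkapk2: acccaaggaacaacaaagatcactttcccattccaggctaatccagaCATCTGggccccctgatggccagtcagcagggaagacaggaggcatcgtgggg

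The next 4 are second-step losses with TCAAGGTCA (TGACCTTGA on the opposite strand) in capitals, the element of orphan nuclear receptors such as Esrrb and Nr5a2, both of which act in ES cells. In the stretches near Jarid2 and Plekhf1 the element lies in sequence that the genome file masks as repeat. The stretch near Vdac1 also holds the E-box CAGATG, left in lower case.
Near Jarid2: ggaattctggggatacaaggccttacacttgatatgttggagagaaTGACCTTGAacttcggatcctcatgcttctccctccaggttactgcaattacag
Near Plekhf1: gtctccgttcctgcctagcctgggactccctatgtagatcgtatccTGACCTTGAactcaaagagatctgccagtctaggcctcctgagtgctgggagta
Near Vdac1: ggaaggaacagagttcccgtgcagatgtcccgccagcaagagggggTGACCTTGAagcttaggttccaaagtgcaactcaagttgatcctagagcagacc
Near Rplp1: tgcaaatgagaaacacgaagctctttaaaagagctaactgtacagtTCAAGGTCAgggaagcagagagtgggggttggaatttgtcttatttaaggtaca

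The first of these stretches, at chr11:89839708-89839807, lies in a peak between genes 142945 bp from the nearest TSS, that of Ankfn1. The peak had 3.22 and 4.60 scaled counts at 12 h, 72.2 in R1 and 31.0 in R2 at 48 h. The stretch near Rapgef1 is at chr2:29516052-29516151, in an intron of Med27, a subunit of the Mediator complex. Its peak had 9.65 and 8.28 at 12 h and 115 and 101 at 48 h, so that both replicates rose to a similar level (log2 fold change 3.58 ± 0.35 SE, adjusted p = 1.64e-06, edgeR). The stretch near Adpgk is at chr9:59198161-59198260, between genes, and its peak rose from 5.36 and 3.68 to 47.7 and 32.7. The last of the gains, at chr1:131086578-131086677 in an intron of Mapkapk2, a kinase of the p38 pathway, rose from 3.22 and 5.52 to 44.4 and 34.4 (log2 fold change 3.10, adjusted p = 0.000155).

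Of the lost elements, that near Jarid2, which encodes a partner of the Polycomb complex PRC2, is at chr13:44675414-44675513. Its peak fell from 70.8 and 81 scaled counts at 12 h to 14.4 and 25.8 at 48 h (log2 fold change -1.88, adjusted p = 0.000356). The others are at chr7:38242470-38242569, chr11:52339758-52339857 and chr9:61667714-61667813, and all of them lie between genes. Their peaks fell from 41.8 and 27.6 to 9.99 and 10.3 (Plekhf1), from 74.0 and 55.2 to 21.1 and 18.9 (Vdac1), and from 184 and 176 to 45.5 and 77.4 (Rplp1, whose TSS is 246913 bp away).

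Matches of 7 motifs, searched on both strands within 150 bp of the centre, were then counted in all distal peaks on the assembled chromosomes. CAGATG was in 20.2% of all 50367 distal peaks, in 25.7% of 2201 second-step gains and in 18.4% of 2866 second-step losses. CAGCTG was in 16.2%, 22.2% and 13.9% of these. TCAAGGTCA was in 1.09% of all distal peaks, in 3 of the 2201 gains (0.136%) and in 74 of the 2866 losses (2.58%). The AP-1 site TGANTCA was in 9.13%, 7.45% and 12.1%, the octamer ATGCAAAT in 1.31%, 2.09% and 1.40%, and the Klf site GGGTGTGG in 3.27%, 2.82% and 3.94%. TGACGTCA, the cyclic AMP response element, was in 0.21%, 0.182% and 0.0698%. E-boxes were thus more frequent in gained than in lost distal peaks, and the nuclear receptor element in lost ones, as a description with no test. GC content also differs between these classes, as given below, and its part in the shares was not tested. In promoter peaks the shares of CAGATG were 13.7% of all, 12.8% of second-step gains and 14.9% of second-step losses, and no excess in gains was seen there.

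**Figure D3:**
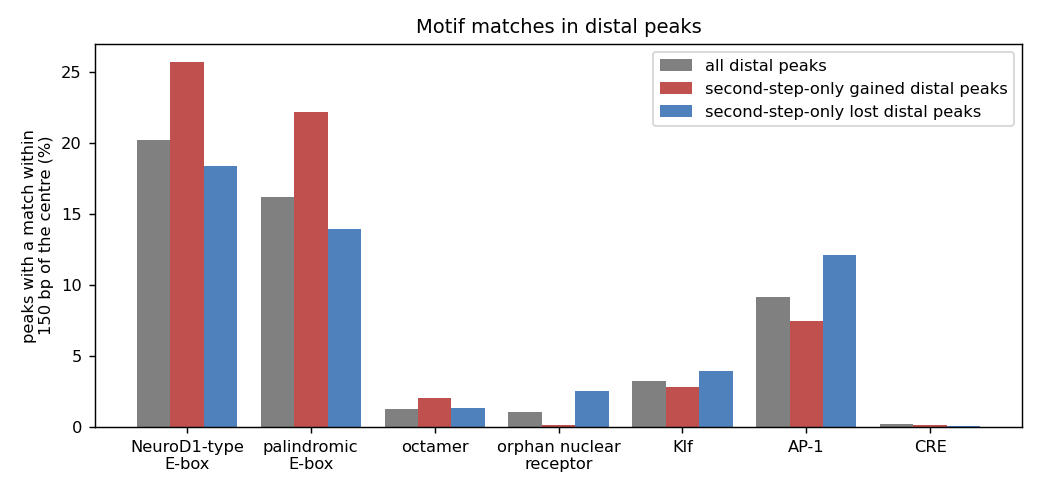
The percentage of distal peaks with a motif match within 150 bp of the centre is shown for all distal peaks (grey), second-step gains (red) and second-step losses (blue). The NeuroD1-type E-box is CAGATG and the palindromic E-box CAGCTG, both highest in gains (25.7% and 22.2%), and the orphan nuclear receptor element is TCAAGGTCA, highest in losses (2.58%).

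Second-step gains and losses lay in different places. Of the gains, 54.3% were promoter peaks, against 24.6% of all peaks and 9.13% of the losses. The peak centre was between genes in 27.7% of gains and 60.3% of losses. Median GC content was 53.0% in gains, 47.0% in losses and 50.2% in all peaks, and both classes were wider than the 676 bp of all peaks, with medians of 1119 bp and 1288 bp. Distal members of the classes lay at similar distances from a TSS, with medians of 29200 bp and 26048 bp.

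The 5 promoters with the largest second-step gains were those of Cplx2, Abcd2, Glra1, St8sia2 and Gap43. Cplx2 encodes complexin, which clamps and speeds vesicle fusion at synapses. Its promoter peak (chr13:54370869-54372833) had 19.5 and 12.7 scaled counts at 0 h, 17.2 and 20.2 at 12 h, and 268 in R1 and 130 in R2 at 48 h. Its log2 fold change over 12 h was 3.38 ± 0.34 (SE, adjusted p = 2.53e-06). Gap43, a growth-cone protein, had 34.3 and 26.7 at 12 h and rose to 235 and 109 (chr16:42339074-42340912, log2 fold change 2.49 ± 0.33, adjusted p = 3.79e-05). In both, R2 rose less than R1 but stood far above all libraries of 0 h and 12 h. St8sia2, which adds polysialic acid to the adhesion molecule NCAM in young neurons, rose from 13.9 and 14.7 to 118 and 49.0 (chr7:74012554-74013531, log2 fold change 2.50, adjusted p = 0.000165).

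Glra1, a glycine receptor subunit, showed the widest gap between replicates of the 5. Its promoter peak (chr11:55607946-55608682) had 5.36 and 6.44 at 12 h, 66.6 in R1 and 18.9 in R2 (log2 fold change 2.78 ± 0.54, adjusted p = 0.00136). Abcd2, a peroxisomal transporter of very long fatty acids, had the narrowest gap, with 9.65 and 11 at 12 h and 88.8 and 65.3 at 48 h (chr15:91189822-91190983, log2 fold change 2.87 ± 0.39, adjusted p = 5.68e-05). All 5 were called also with the GC offset, and their gains in R2 alone corresponded to log2 ratios between 0.95 (Glra1) and 2.37 (Cplx2).

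At the distal end, the largest second-step gains rested on few reads at 12 h. A peak over an exon of Myo5b, a motor of membrane traffic, 71312 bp from the TSS of Acaa2 (chr18:74707530-74708241), held 5 reads in the 12 h libraries and 77 in the 48 h libraries, a depth-scaled ratio of 15.1 with an exact 95% interval of 6.19 to 47.7. The Ankfn1 peak held 8 and 101 reads, a ratio of 12.4 (6.04 to 29.4), and the Adpgk peak 9 and 81, a ratio of 8.81 (4.42 to 19.95). These intervals, like that of Unc5a below, cover counting error only. The peaks were picked by size of change from the same reads, and the intervals do not allow for that choice. The distal ones reached the mean of at least 20 reads through the 48 h libraries. So did the promoter peaks of Glra1 and Abcd2. Losses given below, such as those of Cd37, Pqlc1 and Nfyb, passed this limit through the 12 h libraries instead. The fold changes and adjusted p-values of named peaks do not allow for this selection either. A peak 72191 bp from Adgrl4, an adhesion receptor, rose from 10.7 and 3.68 scaled counts to 92.2 and 49.9 (chr3:151365135-151366258, log2 fold change 3.31, adjusted p = 4.4e-05).

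In the largest promoter losses of the second step, both replicates fell far below 12 h. At Inhbb, the activin beta B subunit, a peak in the intron (chr1:119420153-119421083) fell from 64.3 and 48.8 to 11.1 and 10.3, and the peak over the TSS (chr1:119421216-119422785) from 119 and 109 to 44.4 and 24.1. Cd37, a tetraspanin, and Slc6a16, a transporter of the neurotransmitter carrier family, have adjacent peaks on chromosome 7 that fell together. The first had 40.7 and 34.0 at 12 h and 7.77 and 6.02 at 48 h, and the second had 548 and 611 at 12 h and 144 and 174 at 48 h (log2 fold change -1.86 ± 0.19, adjusted p = 2.42e-06). Cltb, a clathrin light chain, fell from 56.8 and 54.3 to 12.2 and 10.3.

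Of the 5 largest distal losses, 2 lay near genes of inhibitors of signalling. A peak 8497 bp from the TSS of Smad7, an inhibitor of TGF-beta and BMP signalling, fell from 42.9 and 41.4 to 5.55 and 7.74 (chr18:75358669-75359395, log2 fold change -2.62 ± 0.40, adjusted p = 0.000155). Another, 28073 bp from Spry4, an inhibitor of FGF signalling, fell from 49.3 and 41.4 to 7.77 and 10.3 (chr18:38572986-38573699, log2 fold change -2.29, adjusted p = 0.00041). The promoter peaks of both genes were not called, with 1218 and 1141 at 12 h and 1363 and 895 at 48 h for Smad7, and 2183 and 2211 then 1668 and 1800 for Spry4 (adjusted p = 0.817 and 0.0715). Further losses were in introns of Pqlc1 (44.0 and 33.1 to 2.22 and 6.02) and 9530053A07Rik (130 and 144 to 25.5 and 27.5), and 32548 bp from Nfyb (36.5 and 30.4 to 5.55 and 8.60), a subunit of the CCAAT-binding factor.

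**Figure D4:**
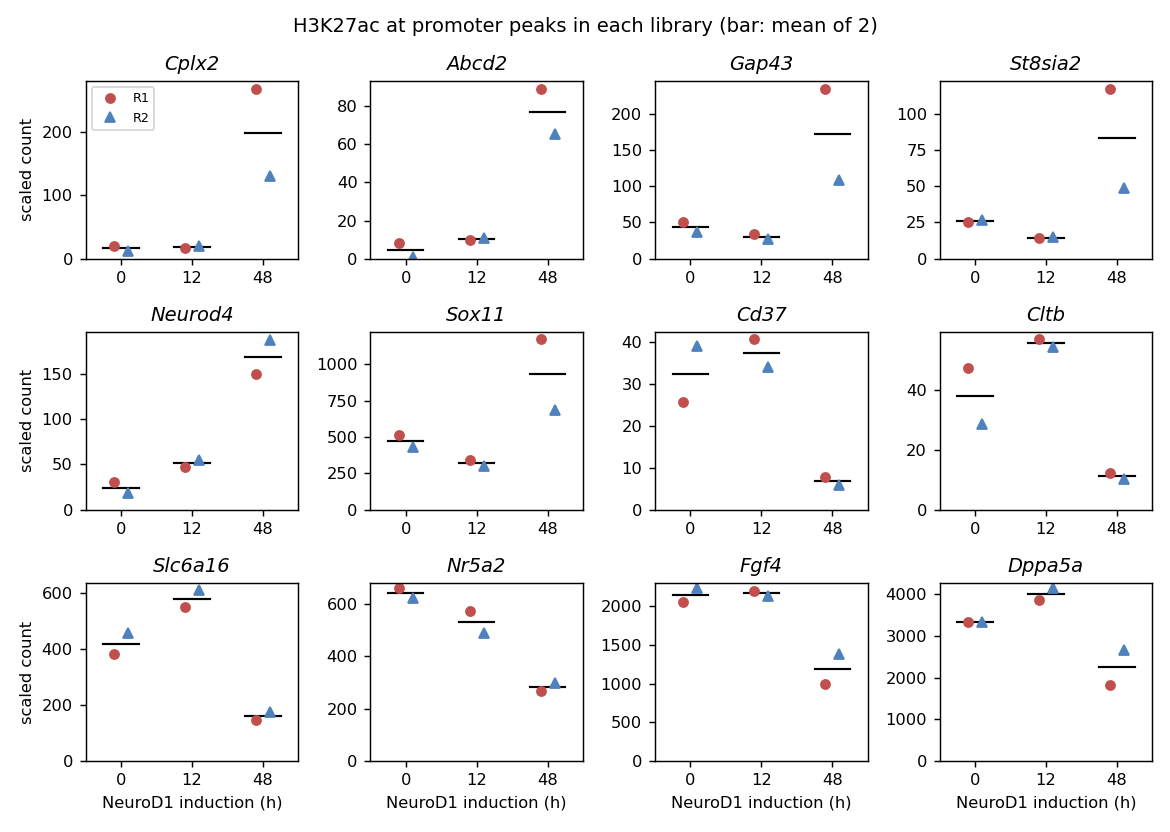
Scaled counts at the promoter peak of 12 genes are plotted against hours of NeuroD1 induction, with circles for R1, triangles for R2 and a bar at the mean of 2 libraries. Cplx2, Abcd2, Gap43, St8sia2, Neurod4 and Sox11 rose from 12 h to 48 h and Cd37, Cltb, Slc6a16, Nr5a2, Fgf4 and Dppa5a fell, genes picked for their change.

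Gene lists were then read through the promoter peak of each gene with the highest mean count. Among 13132 genes with such a peak, 4533 were gained (34.5%) and 312 lost (2.38%), with a median log2 fold change of 0.48. The median log2 ratio of these genes was 0.59 in R1 and 0.30 in R2. Second-step gains were 19.0% of genes and second-step losses 1.7%. With the GC offset, 38.7% were gained and 3.84% lost, with a median of 0.37. These shares varied with depth and GC content. Gains were 17.3% of genes below 50 scaled counts, 45.9% at 100 to 200, 44.2% at 200 to 400 and 11.4% above 800, and losses were 13.1% of genes above 800. By GC content, gains were 16.6% of genes below 50%, 45.6% at 55 to 60%, 45.9% at 60 to 65% and 28.7% above 65%, and losses were 7.26% below 50%. The lists differ in both, and their part in the shares below was not tested. A list is described with no test of the list.

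Cytoskeleton genes of neurons had the highest share of gains among lists with at least 10 genes measured, 16 of 25 (64.0%), with a median count of 148 and a median GC content of 58.1%, and a median log2 fold change of 0.93. The median log2 ratio was 0.97 in R1 and 0.38 in R2, and 11 of the 16 gains were second-step gains. Apart from Gap43, they were led by Dpysl5, Dpysl4 and Tubb2a. Dpysl5 and Dpysl4, of the family that relays collapse signals to microtubules, had 50.4 and 50.6, and 12.9 and 9.20 at 12 h. They rose to 191 and 105 (log2 fold change 1.54, adjusted p = 0.000707) and to 36.6 and 26.7 (1.51, adjusted p = 0.0113). Dpysl5 had been lost at the first step, from 112 and 99.8 at 0 h, so that R2 at 48 h lay between the 0 h libraries. Tubb2a, a beta tubulin of neurons, had 17.4 and 15.9 at 0 h, and its R2 at 48 h lay between these. It rose from 8.58 and 6.44 at 12 h to 22.2 and 17.2 (adjusted p = 0.0419), a call that was lost with the GC offset (adjusted p = 0.085). With this offset 13 of 25 were gained.

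Synaptic genes were gained for 14 of 26, and 9 of the 14 had been lost at the first step. Pclo and Bsn, large scaffold proteins of the presynaptic active zone, show this course. Pclo had 95.4 and 79.6 at 0 h, 45 and 44.2 at 12 h, then 232 in R1 and 140 in R2 at 48 h (log2 fold change 2.05 ± 0.27, adjusted p = 3.83e-05). Bsn had 14.4 and 19.1 at 0 h, 9 reads in all at 12 h, and 25.5 and 13.8 at 48 h, so its 48 h values were not all above those of 0 h. The median log2 ratio of the list was 0.93 in R1 and 0.46 in R2.

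Axon guidance and adhesion genes were gained for 15 of 34 (44.1%), and 14 of the 15 were second-step gains. Unc5c, a netrin receptor, rose from 9.65 and 12.0 to 48.9 and 24.9, Slit1, a repellent ligand, from 7.51 and 13.8 to 51.1 and 18.9, and Plxnc1, a semaphorin receptor, from 11.8 and 11 to 44.4 and 26.7 (adjusted p = 0.0063, 0.017 and 0.00752). Plxnc1 had 29.8 and 21.2 at 0 h, so its R2 at 48 h lay between these. Unc5a had 7 reads at 12 h and 28 at 48 h, a ratio of 3.91 (exact 95% interval 1.67 to 10.6), and its call was lost with the GC offset. It had been lost at the first step, and its scaled counts of 13.3 and 13.8 at 48 h were no higher than the 14.4 and 13.8 of 0 h. In this list the median log2 ratio was 1.00 in R1 but 0.33 in R2, close to the 0.30 of all genes.

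Of the neuronal migration genes, 8 of 21 were gained (38.1%), near the share of all genes, and 4 of these were second-step gains. Fyn, a kinase of the reelin pathway, rose from 82.6 and 87.4 to 352 and 155 (log2 fold change 1.56, adjusted p = 0.000697), and Rnd3, a small GTPase that Neurog2 is known to induce, from 265 and 256 to 699 and 390 (1.06, adjusted p = 0.00182). Lrp8, a reelin receptor, and Auts2, a regulator of neuronal migration, had fallen by 12 h and rose again, Lrp8 from 42.9 and 49.7 to 141 and 77.4 and Auts2 from 192 and 162 to 520 and 292. At 48 h Lrp8 R2 and Auts2 R2 were below both 0 h libraries (82.1 and 86.0, and 310 and 327), and R1 was above them.

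Genes of RNA binding and splicing in neurons were gained for 8 of 16, 7 of them at the second step alone. Srrm4, which drives neuronal microexon splicing, rose at both steps, from 150 and 117 at 0 h through 229 and 219 at 12 h to 655 and 417 (log2 fold change 1.25 ± 0.21, adjusted p = 0.000323). Rbfox3, the antigen NeuN of mature neurons, rose from 12.9 and 5.52 to 77.7 in R1 and 21.5 in R2, and Nova2 from 23.6 and 21.2 to 85.5 and 35.3 (adjusted p = 0.0026 and 0.011). Khdrbs3, another splicing factor, rose equally in both, from 21.4 and 17.5 to 41.1 and 41.3 (adjusted p = 0.0317, and 0.102 with DESeq2).

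Dense-core vesicle genes were gained for 5 of 10, all of them second-step gains. Scg5, a chaperone of the prohormone convertase Pcsk2, was gained as much in R2 as in R1, from 71.8 and 64.4 to 148 and 162 (log2 fold change 1.19 ± 0.25, adjusted p = 0.00264), and Pcsk2 itself rose from 51.5 and 42.3 to 102 and 85.1 (1.00, adjusted p = 0.0114). Ptprn, a membrane protein of these vesicles, had 11.8 and 8.28 at 12 h and 40.0 and 13.8 at 48 h, and its call was lost with the GC offset (adjusted p = 0.0589). Its R2 at 48 h was below both 0 h libraries (18.5 and 21.2). Voltage-gated channels were gained for 7 of 17 (41.2%). Scn8a, a sodium channel of axons, rose from 25.7 and 35.0 to 108 and 60.2 (adjusted p = 0.00334), and Cacna1b, a calcium channel of presynaptic terminals, from 23.6 and 20.2 to 72.2 and 29.2 (adjusted p = 0.0296, and 0.073 with the GC offset). Cacna1b had 40.0 and 37.1 at 0 h, so its R2 at 48 h was below both.

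Among proneural bHLH factors, 6 of 14 had a promoter peak, 3 were gained and 1 was lost. Neurod4, a relative of NeuroD1, rose at both steps and was one of the few genes with the higher value in R2. It had 30.8 and 18.0 at 0 h, 47.2 and 55.2 at 12 h, and 150 in R1 and 187 in R2 at 48 h (chr10:130281264-130283157, log2 fold change 1.72 ± 0.26, adjusted p = 0.000147). Nhlh1 and Nhlh2, small bHLH factors of newborn neurons, rose from 36.5 and 48.8 to 119 and 68.8, and from 42.9 and 40.5 to 119 and 49.9 (adjusted p = 0.0121 and 0.0357). Nhlh2 was lost from the calls with DESeq2 (adjusted p = 0.0778). The peak upstream of Neurod1 (chr2:79456988-79460121) had 71.8 and 63.7 at 0 h, 385 and 366 at 12 h, and 187 in R1 and 268 in R2 at 48 h, a loss at the second step (log2 fold change -0.72 ± 0.20, adjusted p = 0.0149). It starts beyond the gene's TSS at position 79456751 and so does not overlap the coding sequence that the transgene shares.

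All 7 E proteins and Id inhibitors had a promoter peak, and 5 were gained, 4 of them at the second step alone. Tcf12, an E protein that pairs with NeuroD1, had 148 and 153 at 12 h and 366 and 233 at 48 h (chr9:72110510-72112363, log2 fold change 0.99 ± 0.21, adjusted p = 0.00314). At 0 h it had 192 and 197, above both 12 h libraries though with no call at the first step, so its rise over 0 h was smaller. Tcf3 had 580 and 593, then 1124 and 863, after 848 and 861 at 0 h. Id1 and Id2, which bind E proteins and keep them off DNA, rose too, from 176 and 200 to 403 and 244 and from 741 and 809 to 1509 and 1040 (adjusted p = 0.017 and 0.00499). So both E proteins and their inhibitors gained the mark.

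In the Notch pathway 10 of 21 genes were gained, 6 at the second step alone. Maml3, a coactivator of Notch, rose from 163 and 151 to 593 and 318 (log2 fold change 1.53, adjusted p = 0.000122), and Hey2, a target of Notch that represses transcription, from 15.0 and 22.1 to 69.9 and 42.1 (1.56, adjusted p = 0.00496). The receptors Notch2 and Notch3 had fallen by 12 h and rose again, from 90.1 and 79.1 to 187 and 132 and from 198 and 162 to 441 and 251. At 0 h they had 129 and 171, and 303 and 328, so that only R1 exceeded both 0 h libraries in each.

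Neuronal transcription factors were gained for 12 of 28 and lost for 2, and 10 of the gains were second-step gains. Sox11, which acts in newborn neurons, rose from 344 and 297 to 1176 and 682 (chr12:27340553-27344297, log2 fold change 1.53 ± 0.20, adjusted p = 4.3e-05). The POU factors Pou3f1 and Pou3f2 rose from 137 and 101 to 435 and 235, and from 21.4 and 13.8 to 113 and 30.1. Onecut2 rose from 19.3 and 13.8 to 64.4 and 27.5 (adjusted p = 0.0135). The 2 losses, named after their values were seen, were Nfib, a nuclear factor I gene (673 and 573 to 420 and 328), and Rest, which encodes the repressor that silences neuronal genes in other cells. Rest had 1839 and 1871 at 0 h, 1808 and 1800 at 12 h, and 811 in R1 and 1092 in R2 at 48 h (chr5:77253305-77265347, log2 fold change -0.92 ± 0.15, adjusted p = 0.000283). The median log2 ratio of this list was 0.95 in R1 and 0.19 in R2, the latter below that of all genes.

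Neural progenitor markers were gained for 7 of 14, with a median log2 ratio of 1.07 in R1 and 0.13 in R2. Fabp7, a lipid carrier of radial glia, rose from 6.43 and 11 to 41.1 and 28.4, and Prom1 from 95.4 and 79.1 to 304 and 144 (adjusted p = 0.00853 and 0.00313). Prom1 R2 at 48 h lay between the 0 h libraries (145 and 83.8). Zbtb16 and Hmga2, both of neural stem cells, rose from 8.58 and 6.44 to 38.9 and 19.8 and from 117 and 90.1 to 352 and 151. Hmga2 had been lost at the first step, and its R2 at 48 h was below both 0 h libraries (174 and 224). DESeq2 called 1 of the 14, and it gave no adjusted p for Fabp7 and Zbtb16. Hox genes were gained for 6 of 10 and lost for 1. DESeq2 called 2 of the 10 gained and 0 lost. The median log2 ratio of the list was 1.17 in R1 and 0.28 in R2, the latter below the 0.30 of all genes. Hoxb3 rose from 54.7 and 45.1 to 244 and 89.4 and Hoxb2 from 52.5 and 47.8 to 199 and 62.8 (adjusted p = 0.126 with DESeq2). Hoxc6, with 1.03 and 1.06 at 0 h and 22.5 and 14.7 at 12 h, fell to 3.33 and 2.58. It held only 37 reads at 12 h and 6 at 48 h.

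**Figure D5:**
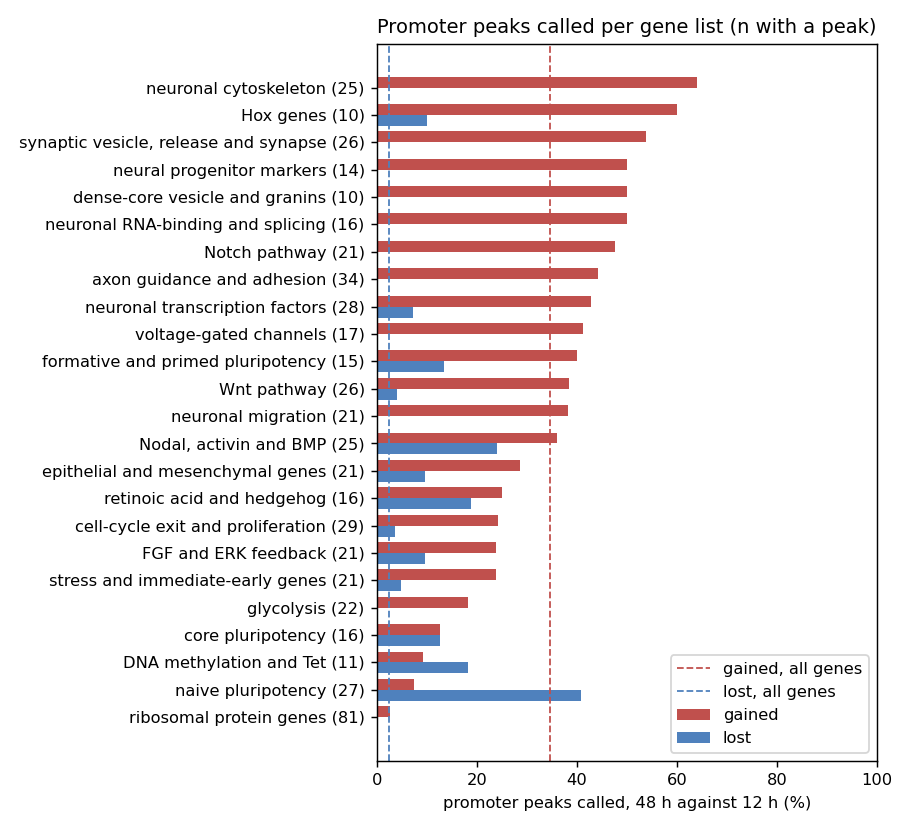
For each gene list with at least 10 genes that have a promoter peak (number in brackets), the bars give the percentage gained (red) and lost (blue) from 12 h to 48 h, and the dashed lines the percentages over all genes, 34.5% and 2.38%. Neuronal cytoskeleton genes have the highest share of gains, 64.0%, and naive pluripotency genes the highest share of losses, 40.7%.

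Naive pluripotency genes went the other way, with 11 of 27 lost (40.7%) and 2 gained. Their peaks were deep and low in GC content, with medians of 696 scaled counts and 50.0%. Among all genes, losses were 2.18% at 400 to 800 scaled counts, near the 2.38% of all, and 13.1% above 800. By GC content they were 7.26% below 50%. Of the losses, 10 had no call at the first step. Nr5a2, a nuclear receptor, had 660 and 624 at 0 h, 575 and 489 at 12 h, and 268 in R1 and 298 in R2 at 48 h (chr1:136950979-136955803, log2 fold change -0.91 ± 0.17, adjusted p = 0.000972). Fgf4, the growth factor that ES cells secrete, fell from 2197 and 2139 to 988 and 1385, and Dppa5a, a marker of ES cells, from 3877 and 4155 to 1832 and 2657 (adjusted p = 0.000543 and 0.000534). Gbx2 rose, from 649 and 526 to 1247 and 776. The median log2 ratio of the list was -0.63 in R1 and -0.20 in R2. With the GC offset the list again had 11 losses, though not all of the same genes, since Zfp42, Dppa2 and Fbxo15 dropped out. DESeq2 called 7 losses.

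Core pluripotency genes were lost for 2 of 16 and gained for 2. Pou5f1 had 4019 and 4290 at 12 h and fell to 2541 and 3006 (log2 fold change -0.58 ± 0.13, adjusted p = 0.00333). Lin28a and Lin28b, which block maturation of let-7 microRNAs, rose from 764 and 893 to 1655 and 1165 and from 397 and 375 to 626 and 604. Lin28a R2 at 48 h lay between the 0 h libraries (1197 and 1083). Formative and primed genes were gained for 6 of 15. Sall2 was among the most even, from 311 and 314 to 882 in R1 and 844 in R2 (log2 fold change 1.47 ± 0.19, adjusted p = 2.53e-05), and Zic2 rose from 606 and 498 to 1443 and 981. Cdh2, the neural cadherin, rose from 87.9 and 110 to 449 and 184 (adjusted p = 0.000472).

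Nodal, activin and BMP genes split, with 9 of 25 gained and 6 lost (24.0%). The losses were Nodal itself, its coreceptor Tdgf1, its inhibitors Lefty1 and Lefty2, Inhbb and Bmp4. Lefty1 fell from 395 and 334 to 163 and 160 (log2 fold change -1.17 ± 0.19, adjusted p = 0.000274), and Bmp4, a ligand of the BMP branch, from 94.4 and 92.9 to 34.4 and 52.5 (adjusted p = 0.00899). In the DNA methylation list, 2 of 11 were lost and 1 gained, and all 3 are Tet enzymes, which oxidise methylcytosine. Tet1 fell from 5511 and 5664 to 2931 and 4194, Tet2 from 2300 and 2500 to 1068 and 1874, and Tet3 rose from 158 and 166 to 505 and 275 (adjusted p = 0.0028, 0.00786 and 0.000801). In each of the 3 the change was smaller in R2.

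Other lists had gains near or below the share of all genes. FGF and ERK feedback genes were gained for 5 of 21 and lost for 2, with Dusp4, a phosphatase of ERK, up from 623 and 567 to 1406 and 1009 after a first-step loss from 837 and 841. Wnt genes were gained for 10 of 26 and lost for 1, Wnt8a, which fell from 34.3 and 40.5 to 9.99 and 20.6 after 4.10 and 9.55 at 0 h. With the GC offset, 7 Wnt genes were gained and 5 lost. Retinoic acid and hedgehog genes were gained for 4 of 16 and lost for 3, with Gli1, a hedgehog target, down from 1115 and 1165 to 673 and 604 (adjusted p = 0.000579) and Smo, the hedgehog signal transducer, up from 140 and 123 to 320 and 188. Smo had been lost at the first step, from 255 and 253, and its R2 at 48 h stayed below these. Epithelial and mesenchymal genes were gained for 6 of 21 and lost for 2, with Vim up from 169 and 159 to 346 and 239. Cell-cycle genes were gained for 7 of 29 and lost for 1. The cell-cycle inhibitors Cdkn1b and Cdkn2d rose, from 389 and 345 to 889 and 638 and from 174 and 197 to 301 and 306. Cdkn1b had been lost at the first step from 554 and 547. Cdkn2d had no call at that step, but it had 268 and 264 at 0 h, above both 12 h libraries, so its rise over 0 h was smaller.

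Stress and immediate-early genes were gained for 5 of 21 and lost for 1, and glycolysis genes were gained for 4 of 22. Germline genes were gained for 1 of 7 and lost for 1, Aurkc, which fell from 76.1 and 75.4 to 21.1 and 29.2. Endocrine pancreas genes were gained for 1 of 6, Rfx3, from 314 and 347 to 889 and 559 after a first-step loss from 564 and 602. The 8 mesoderm, endoderm and trophoblast genes with a peak had a median log2 fold change of 0.00, and 3 of them were called lost with the GC offset alone. Ribosomal protein genes were gained for 2 of 81, with a median log2 ratio of 0.17 in R1 and 0.18 in R2, and 12 were gained with the GC offset. Fibroblast feeder genes were gained for 2 of 5 with a peak, among them Col5a1, a collagen, from 52.5 and 46.9 to 137 and 77.4, and glial markers for 1 of 4, Slc1a2, a glutamate transporter, from 32.2 and 41.4 to 189 and 79.1. Slc1a3, another glutamate transporter of glia and progenitors, had 145 and 144 at 12 h and 123 and 136 at 48 h. Col5a1 R2 at 48 h was below both 0 h libraries (90.3 and 81.7).

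Across these lists, 184 promoter peaks were gained and 38 lost. R1 stood above R2 in 177 of the gains and in 8 of the losses.

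Peaks that had moved at the first step were also followed. Of the 304 peaks gained at both steps, the largest second gains were 47212 bp from Vxn, a factor of neuronal differentiation, with 5.13 and 2.12 at 0 h, then 15.0 and 11, then 92.2 and 50.7, in an intron of Map2k6, a kinase that activates p38, with 1.03 and 2.12, then 9.65 and 10.1, then 55.5 and 48.2, and 110165 bp from Pcdh18, a protocadherin, with 10.3 and 3.18, then 20.4 and 20.2, then 121 and 81.7. Of the 2471 peaks gained and then lost, the largest falls were in gene-poor intervals, 431512 bp from Nedd1 (51.5 and 69.0 to 3.33 and 8.60) and 431727 bp from Atp10a (60.0 and 89.2 to 6.66 and 10.3), and 18519 bp from Kiz (33.2 and 38.6 to 2.22 and 5.16). Both 48 h libraries were below both 0 h libraries in 310 of the 2471. Of the 2034 peaks lost and then gained, 90.7% were promoter peaks, among them those of Bco2 (22.5 and 15.6 to 130 and 105) and Celsr3, a cadherin of axon tracts (19.3 and 25.8 to 147 and 70.5, after 86.2 and 94.5 at 0 h), and both 48 h libraries were above both 0 h libraries in 170.

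Some genes had many second-step changes among the distal peaks nearest to them within 100 kb, which depends also on how many such peaks a gene has. Among all distal peaks, 4.39% were second-step gains and 5.69% second-step losses. Second-step losses were most numerous, 8 each, near Inhbb (of 14 peaks), Sox2 (of 24), Tfap2c (of 25), Irf2bpl (of 26) and Pitpnc1 (of 50, with 7 of the 8 called with the GC offset). The 8 peaks near Sox2, the pluripotency and neural progenitor factor, summed to 1144 and 1196 scaled counts at 12 h and to 571 in R1 and 653 in R2 at 48 h. The Sox2 promoter peak itself was not called, with 2602 and 2398 at 12 h and 2131 and 1991 at 48 h (adjusted p = 0.134). Near Tfap2c, a factor of the germline and trophoblast, the sums were 1556 and 1422, then 615 and 810. Near Inhbb they were 388 and 333, then 85.5 and 101. Bclaf3 (of 9), Tbx3 (of 17), Mtf2 (of 19), Mycn (of 25) and Msi2 (of 27) followed with 6 each, and Tbx3, a factor of naive ES cells, fell evenly, from 414 and 374 to 182 and 187, whereas Mtf2, a Polycomb protein, fell from 2533 and 2625 to 995 in R1 and 1956 in R2, with 4 of its 6 peaks called with the GC offset.

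Second-step gains were most numerous near Irs2, an adaptor of insulin signalling, with 11 of 16 distal peaks, whose sums rose from 637 and 740 to 1753 and 1094. Gm21860 also had 11, of 15, at the end of the Y chromosome, where reads can be shared with near-identical copies, and its values are uncertain. Next came Atg7 with 8 of 13, Zfp608 with 7 of 14, Chst15 with 7 of 18 and Macf1 with 7 of 36. All 7 distal peaks nearest to Eml1, a microtubule-associated protein of cortical progenitors, were second-step gains, and their sums rose from 77.2 and 81 to 387 and 234. Those near Zfp608, a zinc finger gene, rose about equally, from 271 and 248 to 624 and 551, and those near Macf1, a linker of actin and microtubules, from 292 and 225 to 595 and 513. Ank2 (of 10), Ccdc182 (of 20) and Bcar1 (of 24) came next with 6 each, taken in alphabetical order from the genes with that number. Ank2, an ankyrin of axons, rose from 282 and 313 to 537 and 555, with no lower value in R2. Neighbouring peaks of a locus are not independent.

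Within 10 kb of genes with a promoter peak, 13.9% of 45121 peaks were gained and 5.83% lost. For naive pluripotency genes these were 7 and 32 of 194 peaks, with losses at 16.5%. For neuronal cytoskeleton genes they were 33 and 3 of 100, for neuronal transcription factors 48 and 11 of 160, and for proneural bHLH genes 10 and 4 of 26. For axon guidance genes they were 35 and 22 of 256, with gains at 13.7%, near that of all. Around Esrrb, the nuclear receptor of naive cells, 4 of 13 peaks were lost, and the summed scaled counts went from 7140 and 6838 at 12 h to 3441 in R1 and 4793 in R2 at 48 h. Around Nanog 4 peaks summed to 2387 and 2395, then to 2096 and 2304. Esrrb and Nanog were named after their values were seen.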

How the data were processed

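H3K27ac ChIP-seq was deposited as read counts per merged peak, and the counts were not scaled by the authors. Before counting with QuasR, the authors had aligned the reads to mm10 (GRCm38) in the local mode of Bowtie2, used SAMtools 0.1.19, and merged MACS2 peaks called over Input. Column names gave time point and replicate.

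The test was edgeR 4.0.16 (glmQLFit, glmQLFTest; R 4.3.3) in a single fit of the 6 libraries, offset by library totals of 6283103 to 8112895 reads, with Benjamini-Hochberg adjustment over 66841 peaks and a threshold of 0.05. The biological coefficient of variation was 14.9%, with 3 residual degrees of freedom. The median peak held 30.5 reads, so counting error is wide in low peaks. The script was tested on simulated data. Alternatives were TMM factors, DESeq2 1.42.0, at least 10 reads in 2 libraries, the 4 libraries of 12 h and 48 h alone, a replicate block, a GC offset (a lowess curve of span 0.3 per library), both of these together, a fold of at least 2, and each library left out.

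Promoters followed GENCODE vM21 (basic, protein-coding). Named genes were, among peaks averaging at least 20 reads with both 48 h libraries beyond both 12 h libraries, the 5 largest second-step changes per direction and kind and the 3 largest of each course over both steps, by nearest TSS. To these came up to 4 members per list by size of change (the 2 deepest where fewer than 2 were called) and the 10 genes with most second-step distal peaks per direction. Some genes that this rule names are not reported here. Members and lists were chosen with earlier results of these data known. Python 3.11.15, pandas 2.3.3, scipy 1.17.1, pysam 0.24.0 and matplotlib 3.10.9 were used.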

Additional observations from a re-analysis of the deposited data

How the results depend on the processing

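The direction of the change from 12 h to 48 h was kept by every named peak under every alternative, except at the promoter peak of Pax6, which was not called (0.22 on the log2 scale) and gave -0.20 without 48 h R1 and 0.56 without 48 h R2, where it was called. Calls depended more on the settings. DESeq2 gave an adjusted p for 115 of the 135 named peaks and none for the rest, Glra1 and the Acaa2, Ankfn1 and Adpgk peaks among them. Of 135 named peaks, 15 calls were lost with the 4 libraries of the compared times alone, 13 of 115 with DESeq2, 7 with the GC offset, 36 with a fold of at least 2, 63 without 12 h R1, 70 without 12 h R2, 35 without 48 h R1, and 13 without either 0 h library.

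All gains numbered 4392 with DESeq2, 4621 with 4 libraries and 3430 with a fold of at least 2, and all losses 3073, 3747 and 3213. Promoter gains were 2646 with 4 libraries and 1364 with the fold, and promoter losses were 261 with DESeq2, 281 with 4 libraries, 699 with the GC offset and 167 with the fold. Distal gains were 1131 with DESeq2 and 4234 with the GC offset, and distal losses 2812 with DESeq2, 3466 with 4 libraries and 3046 with the fold. Second-step gains were 2077 with 4 libraries and 2681 with the fold, and second-step losses 1729 with DESeq2, 1079 with 4 libraries, 4837 with the GC offset and 1640 with the fold.

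Leaving out each library in turn gave 680 to 12995 gains and 1062 to 11596 losses in all, 287 to 8322 and 80 to 911 at promoters, 393 to 4673 and 982 to 10685 at distal peaks, and 618 to 6160 and 734 to 5335 at the second step. The lowest values came without 12 h R2 and the highest without 48 h R2, and these fits assume that a lone library varies like the other groups. Gains were 56.0% of calls, but 45.8% without 12 h R1 and 39.0% without 12 h R2. Apart from these fits with fewer libraries, the cause of the shifts was not tested.

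The replicate numbers are shared by the time points, but deviations of same-numbered libraries did not move together (correlations of -0.04, -0.05 and 0.08). With the replicate block, 7179 peaks were gained and 5930 lost. With the replicate block and the GC offset, 725 promoter losses, 4427 distal gains, 7369 second-step gains and 5168 second-step losses were called. With 2 libraries per time and a median of 30.5 reads per peak, small changes in low peaks were not detectable.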

Other observations

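Broad peaks, of at least 5 kb, are a group chosen after values were seen. There were 1614 of them, and 582 (36.1%) were lost and 96 (5.95%) gained from 12 h to 48 h, beside 7.75% and 10.8% of the narrower peaks. Broad distal peaks were lost for 469 of 937 (50.1%), with a median log2 ratio to 12 h of -0.74 in R1 and -0.26 in R2 over the 937. Of the 469 losses, 234 had been gained by 12 h and 234 were second-step losses. Broad peaks hold more reads, with a median scaled count of 735 in the distal ones, and deep peaks are easier to call. Among 487 narrower distal peaks with at least 400 scaled counts, 157 (32.2%) were lost, with medians of -0.45 in R1 and -0.13 in R2. With the GC offset 48.8% of the broad distal peaks were lost. The largest falls were 58523 bp from Gm11983 (936 and 934 scaled counts at 12 h, 165 in R1 and 272 in R2 at 48 h), and 49457 bp from Col13a1, a transmembrane collagen (925 and 833 to 211 and 273). Both peaks had been gained at the first step, from 495 and 457 (Gm11983) and from 601 and 593 (Col13a1) at 0 h.

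Broad peaks that rose lay over promoters of developmental regulators and in distal sites. Besides Sall2, the promoter of Nr6a1, a nuclear receptor that represses Pou5f1, rose from 348 and 388 to 824 in R1 and 943 in R2 (log2 fold change 1.26, edgeR adjusted p = 0.000203), with the higher value in R2. The promoter of Setbp1 rose from 352 and 340 to 1028 and 635. A distal peak 163097 bp from Skap2 rose from 201 and 160 to 627 and 545, and another 231304 bp from Chd6 from 321 and 277 to 729 and 731. The peaks of Nr6a1 and Skap2 had been gained at the first step too.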
